A study of Mus musculus with 2 samples.

Results

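The genes described here encode the lysosome's degradative enzymes, their helper proteins, the membrane proteins of the organelle and the proton pump that acidifies it. They form a list of 50 mouse gene symbols, and a gene was measured where a probe set of the array named that symbol alone. This held for 49 of the 50 genes, out of 19935 genes measured in the series, and the 1 gene without such a probe set was Atp6v0c, the proteolipid ring subunit of the pump. Only Atp6v1f had more than 1 such probe set, and the one whose values averaged higher over the arrays stands for it.

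The study measured RNA from Ba/F3 cells that constitutively express BCR-ABL on mouse Gene 1.0 ST arrays. Ba/F3 cells are a line of mouse B-lineage precursors that need interleukin-3 (IL-3) to live. BCR-ABL, the fusion kinase that drives chronic myeloid leukaemia, removes this need, and imatinib blocks it. The cells with IL-3 were grown in medium with IL-3 and 10% serum and given 5 µM imatinib for 6 h, and the cells without IL-3 were grown in the same medium lacking IL-3, with the same imatinib dose and time in the treatment protocol. Each condition had 1 array, titled as live cells, and the submitters called cells with IL-3 resistant and cells grown without growth factor sensitive to the drug. The sources used here do not say whether the line was a single clone, and both conditions lack a culture without imatinib. The labels conflict in part: the title and source name of the first array give IL-3, whereas its description gives growth without it, and the source name of the second can be read as without imatinib. Groups follow the titles, and if the titles were swapped every sign below would turn.

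Each value is the authors' processed log value, taken as log2, relative to a baseline of that probe set which the sources used here do not give. A value above 0 therefore lies above that baseline and is not an expression level, so levels cannot be compared between genes and the presence of a transcript cannot be judged. The comparison is the difference of the arrays, with IL-3 minus without IL-3, in which the baseline cancels, and a fold is 2 raised to the size of that difference. Since each condition had a single array, the conditions could not be tested against each other and no standard error or p-value is given. Among 998 genes with more than 1 probe set, differences within a gene had a pooled SD of 0.14. It covers scatter within these arrays only, and it can also hold true differences between transcripts of a gene. It serves as a yardstick of size and does not measure the error between cultures. In such bulk RNA, fewer cells of a type and less RNA per cell cannot be told apart.

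Lysosomes break down proteins, glycans and lipids that arrive by endocytosis, phagocytosis and autophagy. Their enzymes work in acid, which the vacuolar ATPase maintains by pumping protons: its V1 sector in the cytosol hydrolyses ATP and its V0 sector in the membrane carries the protons. Many of these genes share a promoter element, the CLEAR motif, an extended E-box bound by TFEB and its relatives TFE3 and MITF, which the kinase mTORC1 holds in the cytosol when nutrients and growth factors are plentiful.

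The promoter element was looked up first, because it is what the genes are known to have in common. Promoter windows of 300 bases, from 250 before to 50 after each annotated transcript start, came from RefSeq on GRCm38.p6 and covered 42 of the 49 measured genes. The windows of 8 of these 42 (19.0%) held the CLEAR core TCACGTGA, against 304 of all 27025 genes with a window (1.12%). Those 27025 include genes that were not measured. Of the measured genes with a window, 238 had the core and 15374 lacked it. The shorter E-box CACGTG, which lies within the core, was found in 15 of the 42 (35.7%), against 8.09% of the 27025 genes. Both motifs read the same on either strand. The stretches below show the core in capitals with up to 26 bases on each side, 5′ to 3′, from the gene with the lowest difference to the one with the highest, so that the flanks of the shared element can be compared.
Ctsd, chr7:142387893-142387952, minus strand: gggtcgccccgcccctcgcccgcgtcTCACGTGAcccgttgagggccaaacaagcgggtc
Gla, chrX:134601200-134601255, minus strand: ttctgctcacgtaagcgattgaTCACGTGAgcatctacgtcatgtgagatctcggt
Cln3, chr7:126583325-126583384, minus strand: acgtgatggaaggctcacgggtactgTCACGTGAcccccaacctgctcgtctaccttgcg
Atp6v0d1, chr8:105566035-105566094, minus strand: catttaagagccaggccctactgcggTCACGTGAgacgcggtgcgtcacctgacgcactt
Ctsa, chr2:164833734-164833793, plus strand: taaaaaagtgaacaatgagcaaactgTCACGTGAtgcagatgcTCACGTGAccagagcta
Mcoln1, chr8:3500447-3500506, plus strand: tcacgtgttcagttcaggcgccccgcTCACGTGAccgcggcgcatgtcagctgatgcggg
Gnptg, chr17:25240111-25240164, minus strand: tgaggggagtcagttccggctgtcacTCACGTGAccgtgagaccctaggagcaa
Atp6v1a, chr16:44139358-44139417, minus strand: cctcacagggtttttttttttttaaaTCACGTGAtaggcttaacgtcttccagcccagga

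Cathepsin D had the lowest difference among these 8 genes, and the 250 bases before its start are shown with the core in capitals to place the motif, which begins 99 bases before the start. A second E-box at the far 5′ end of this stretch, in lower case, does not complete the core.
Ctsd, chr7:142387828-142388077, minus strand: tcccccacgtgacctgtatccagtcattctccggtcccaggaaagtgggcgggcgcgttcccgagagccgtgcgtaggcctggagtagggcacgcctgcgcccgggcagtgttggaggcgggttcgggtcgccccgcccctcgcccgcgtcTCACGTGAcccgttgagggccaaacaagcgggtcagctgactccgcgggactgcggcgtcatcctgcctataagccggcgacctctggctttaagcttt

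The core began 122 bases before the start in Cln3, 132 in Atp6v1a, 46 in Mcoln1, 13 in Ctsa and 4 in Atp6v0d1. Ctsa had 2 copies, both in the stretch shown. Gla also had 2, and the farther one, which begins 228 bases before the start, is shown. In Gnptg the same copy lay 22 bases before one annotated start and just inside the transcript from another. For Cln3, Ctsa, Atp6v1a and Gnptg the starts used lie inside the annotated span of the gene. Their cores therefore lie downstream of the outermost start of the gene. A match describes these letters and is not evidence of binding. A window was not at hand for Asah1, Atp6v1b2, Atp6v1c1, Atp6v1h, Ctsb, Ctsh and Npc1.

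Most lysosomal genes were lower with IL-3 than without it. Of the 49 genes, 40 (81.6%) had a difference below 0 and 9 had one above 0, whereas of all 19935 genes 40.1% were below 0 and 59.8% above. The median difference was -0.24 for the lysosomal genes and 0.04 for all genes. The sizes were moderate: with IL-3, 7 genes were lower by 1.5-fold or more, where 2.71% of all genes were, and 2 were higher by 1.5-fold or more, where 3.52% of all genes were. At 2-fold, 0 lysosomal genes were lower and 0 were higher, beside 0.657% and 0.441% of all genes. A difference lower by at least the probe set SD of 0.14 was found in 33 genes (background 17.1%), one higher by at least that SD in 6 (background 26.9%), and 10 genes lay within it. The genes past the SD on the higher side were Gusb, Naglu, Atp6v1a, Ctsf, Gnptg and Ctsz.

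**Figure D1:**
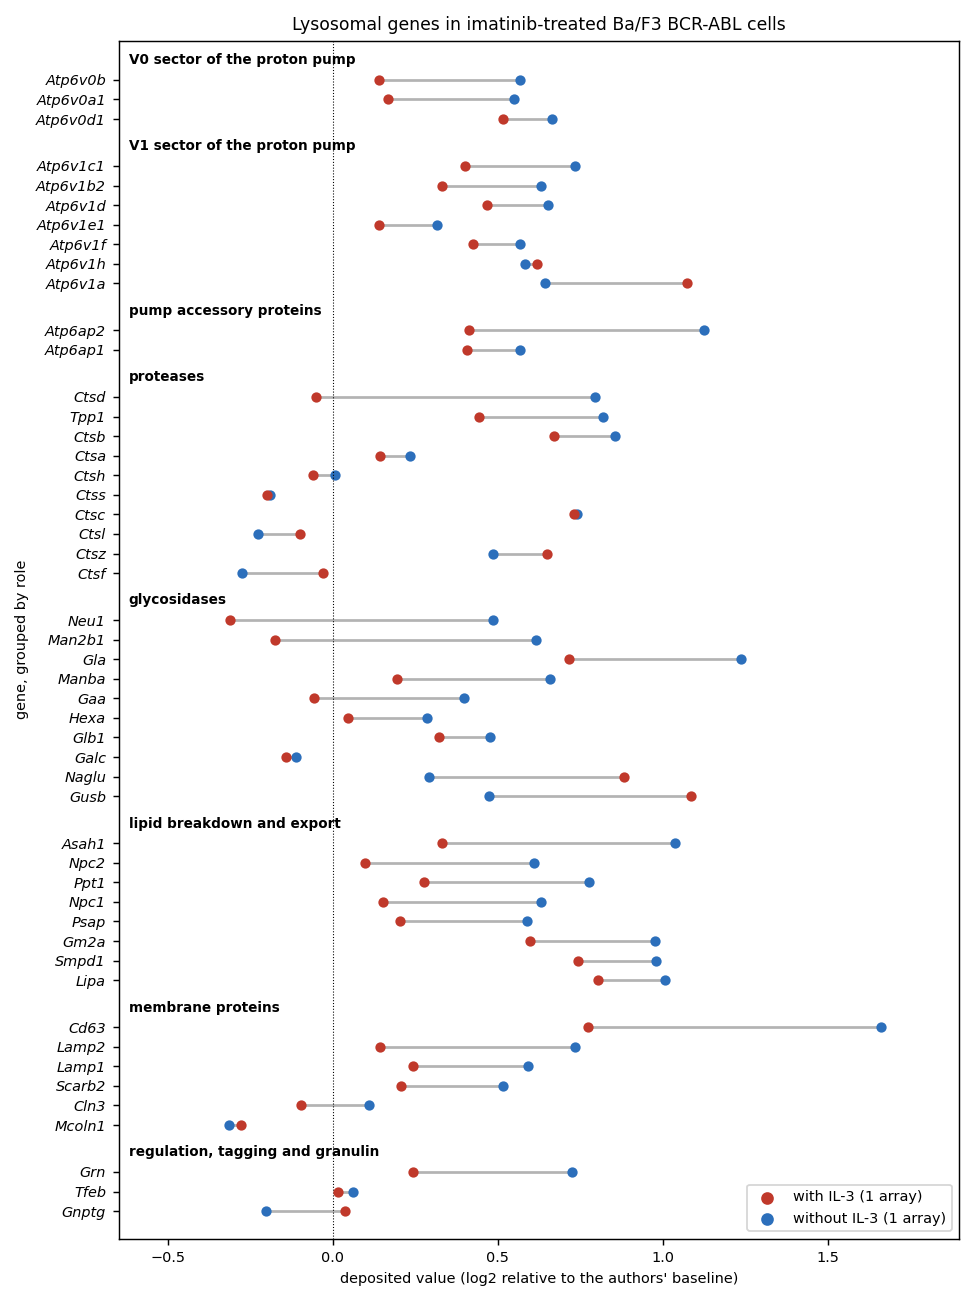
Deposited values of the 49 measured lysosomal genes (x axis, log2 relative to the authors' baseline), red with IL-3 and blue without IL-3, 1 array each, with a grey line joining the points of a gene and genes grouped by role. The red point lies left of the blue one in 40 of 49 genes, and the widest gaps to the other side are those of Gusb and Naglu.

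Relative to the authors' baseline, 38 of the 49 genes were above 0 with IL-3 and 43 without IL-3. For all genes these shares were 45.3% with IL-3 and 43.4% without it. The lysosomal genes had a median deposited value of 0.24 with IL-3 and 0.59 without it, while over all genes the median was -0.02 with IL-3 and -0.04 without it. Of the 49 genes, 37 lay above the baseline in both arrays, as did 6837 of all 19935 genes. Because the scatter of differences widens with the mean deposited value, the genes were also set beside those in the highest 25% of mean value, which hold 34 of the 49. Of these 34 genes, 29 were below 0, with a median difference of -0.34, against 39.0% below 0 and a median of 0.11 for all 4984 genes in that range. There, 27 of the 34 were lower by at least the probe set SD (background 27.4%) and 4 were higher by as much (background 46.9%). In this range 5 of the 34 were lower by 1.5-fold or more with IL-3 (background 6.68%) and 2 were higher by as much (background 12.8%). The share past 1.5-fold on the lower side was thus closer to the background there than over all genes. The contrast lay mainly in the sign, the median and the share lower by at least the SD. The remaining 15 genes had a median of -0.07, and 11 of them were below 0.

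**Figure D2:**
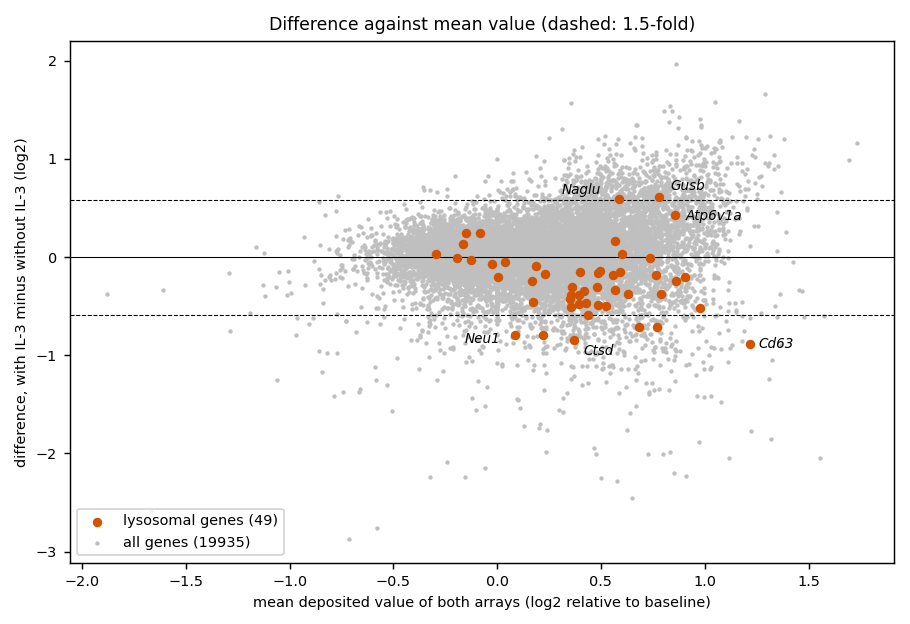
Difference, with IL-3 minus without IL-3 (y axis, log2), against the mean deposited value of both arrays (x axis, log2 relative to baseline) for 49 lysosomal genes in orange and all 19935 genes in grey, with dashed lines at 1.5-fold. The orange points lie mostly below 0 and inside the grey cloud, with 7 below the lower line and 2 above the upper one.

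The proton pump genes were lower with IL-3 in 10 of 12 cases, with a median of -0.18. In the V0 sector all 3 measured genes were below 0. Atp6v0b, a membrane ring subunit, had 0.14 with IL-3 and 0.57 without IL-3, a difference of -0.43. Atp6v0a1, which forms the proton path together with the ring, had 0.17 with IL-3 and 0.55 without it, and Atp6v0d1, which couples the ring to the central stalk, had 0.51 with IL-3 and 0.66 without IL-3. The last of these differences, -0.15, was about the size of the probe set SD.

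The V1 sector was mixed. Atp6v1c1, the subunit that joins the sectors, had 0.40 with IL-3 and 0.74 without it, and Atp6v1b2, the B subunit of the ATP-hydrolysing hexamer, had 0.33 with IL-3 and 0.63 without IL-3. Atp6v1d, of the central stalk, and Atp6v1e1, of the peripheral stalk, differed by -0.19 and -0.18. The stalk gene Atp6v1f differed by -0.14 in the probe set used and by -0.06 in its other one, so both were within the scatter. Atp6v1h, a regulatory subunit, differed by 0.04. Atp6v1a went the other way. This catalytic A subunit had 1.07 with IL-3 and 0.64 without IL-3, 1.35-fold higher with IL-3 (a difference of 0.43, or 0.17 with a loess trend subtracted), although its partner in the same hexamer, Atp6v1b2, was 1.23-fold lower. It is 1 of the 8 genes with the CLEAR core in its window. Of the accessory proteins, Atp6ap2, the prorenin receptor, had 0.41 with IL-3 and 1.12 without IL-3, 1.64-fold lower and the largest difference of any listed pump gene. Atp6ap1, the other accessory protein, was only 1.12-fold lower.

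The remaining pump genes, a list of 15 isoforms and associated factors, did not share this shift. Their median was 0.07, beside 0.04 for all genes, and 6 of 15 (40%) were below 0, beside 40.1% of all genes. In this list 0 passed 1.5-fold in either direction, where 2.71% of all genes were lower and 3.52% higher by as much. The lowest were Ncoa7 (-0.40), which binds the V1 sector, and Atp6v1e2 (-0.12), a testis form of the E subunit. The highest were Atp6v0e2 (0.29) and Atp6v0a2 (0.20), an a subunit known from the Golgi and endosomes. Several genes of this list are isoforms known from kidney, bone, brain or testis, and the values cannot tell whether these cells express them.

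Among the proteases, cathepsin D alone passed 1.5-fold. Ctsd, an aspartic protease, had -0.05 with IL-3 and 0.79 without IL-3, 1.80-fold lower and below the baseline only in the array with IL-3. Tpp1, a tripeptidyl peptidase, had 0.44 with IL-3 and 0.82 without it and was 1.30-fold lower, and the cysteine protease gene Ctsb was 1.14-fold lower. The differences of Ctsa, Ctsh, Ctss and Ctsc, at -0.09, -0.07, -0.01 and -0.01, were within the probe set SD, although Ctsc was at -0.21 with a loess trend subtracted. On the other side were Ctsl at 0.13, also within it, Ctsz at 0.17 and Ctsf at 0.24. Of the 10 protease genes, 7 were below 0, with a median of -0.04 that was near the median of all genes.

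The glycosidases went both ways, with 8 of 10 below 0, a median of -0.35 and the highest 2 of all 49 genes. Neu1, the sialidase that removes terminal sialic acid, had -0.31 with IL-3 and 0.48 without IL-3 (1.74-fold lower). Man2b1, the lysosomal alpha-mannosidase, had -0.18 with IL-3 and 0.62 without IL-3 (1.73-fold lower). Manba, the beta-mannosidase that acts on the same kind of glycan, was 1.38-fold lower with 0.19 with IL-3 and 0.66 without IL-3. Gla, which removes alpha-galactose from glycolipids, had 0.72 with IL-3 and 1.24 without IL-3 (1.44-fold lower), and Gaa, the glycogen-degrading alpha-glucosidase, was 1.37-fold lower. Smaller differences were those of Hexa (-0.24), a subunit of beta-hexosaminidase, Glb1 (-0.16), the beta-galactosidase, and Galc (-0.03), the galactosylceramidase. Neu1 and Glb1 proteins form a complex with the product of Ctsa, and of these 3 genes Neu1 alone passed 1.5-fold.

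The 2 glycosidases with the highest differences were Gusb and Naglu. Gusb, the beta-glucuronidase, had 1.09 with IL-3 and 0.47 without IL-3 (1.53-fold higher). Naglu, which removes N-acetylglucosamine from heparan sulfate, had 0.88 with IL-3 and 0.29 without IL-3 (1.51-fold higher). Both lie just past 1.5-fold. Naglu is under it after median centring (0.58), and neither stays past it after quantile normalization (0.51 and 0.52) or with a loess trend subtracted (0.39 and 0.46). Both take part in the breakdown of glycosaminoglycans. A set of other such enzymes, grouped after their values were seen, went both ways: Arsb (-0.98), Idua (-0.21), Sgsh (-0.18) and Hgsnat (-0.12) were below 0, and Ids (0.06), Galns (0.31) and Hyal2 (0.36) were above 0. Naglu lies directly beside the pump gene Atp6v0a1 on chromosome 11 of GRCm38.p6, at chr11:101070090-101077672 and chr11:101009422-101063719, with 6370 bases and 0 annotated genes between them. The difference was 0.59 for Naglu and -0.38 for Atp6v0a1.

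All 8 genes of lipid breakdown and export were lower with IL-3, each by more than the probe set SD, with a median of -0.43. All of them lie in the highest 25% of mean value, where 27.4% of genes were lower by at least that SD. Asah1, the acid ceramidase, had 0.33 with IL-3 and 1.04 without IL-3 (1.63-fold lower). Npc2 and Npc1, which pass cholesterol from one to the other for its exit from the lysosome, had similar differences. Npc2 had 0.10 with IL-3 and 0.61 without it, and Npc1 had 0.15 with IL-3 and 0.63 without IL-3. Ppt1, which removes palmitate from proteins, was 1.42-fold lower. Psap, the precursor of the saposins that present sphingolipids to their hydrolases, and Gm2a, the activator that presents GM2 ganglioside to beta-hexosaminidase, were both 1.30-fold lower. As deposited, the smallest differences of the group were those of Smpd1 (-0.24), the acid sphingomyelinase, and Lipa (-0.20), the acid lipase. With a loess trend subtracted these were -0.50 and -0.48, and Psap, at -0.44, had the smallest.

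Of the 6 membrane proteins, 5 were lower with IL-3 and the median was -0.33. Cd63, a tetraspanin of late endosomes, lysosomes and secretory granules, had 0.77 with IL-3 and 1.66 without IL-3, 1.85-fold lower and the lowest difference of the 49 genes. Lamp2, a main glycoprotein of the lysosomal membrane with a role in autophagy, had 0.14 with IL-3 and 0.73 without it and just passed 1.5-fold. Lamp1, its relative, had 0.24 with IL-3 and 0.59 without IL-3 (1.27-fold lower). Scarb2, the receptor that carries glucocerebrosidase to the lysosome, was 1.24-fold lower, and Cln3, a membrane protein mutated in Batten disease, was 1.15-fold lower. Mcoln1, a calcium-permeable channel, had -0.28 with IL-3 and -0.31 without IL-3, a difference well within the scatter.

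Tfeb, the transcription factor of the set, had 0.01 with IL-3 and 0.06 without IL-3 on its probe set, a difference of -0.05. Grn, the precursor of the granulins, was 1.40-fold lower, with 0.24 with IL-3 and 0.72 without IL-3. Gnptg, a subunit of the enzyme that tags hydrolases with mannose 6-phosphate, had 0.04 with IL-3 and -0.20 without IL-3, so that it lay above 0 only in the array with IL-3. Gnptab, which encodes the other subunits of that enzyme, differed by 0.17 and Nagpa, which uncovers the tag, by 0.29.

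The genes whose windows hold the CLEAR core did not have the lowest median of the list. It was -0.12 (8 genes, 5 below 0), that of the 7 genes with an E-box but no core was -0.16 (4 below 0), and that of the 27 genes with neither was -0.31 (25 below 0). Over the whole array, 238 measured genes with the core had a median of 0.01 and 49.6% below 0, against 0.04 and 39.9% for the 15374 with a window lacking it. The members with the core ranged from -0.85 for Ctsd to 0.43 for Atp6v1a. Only exact matches within the windows were sought, so genes with neither motif were not shown to lack a CLEAR element.

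**Figure D3:**
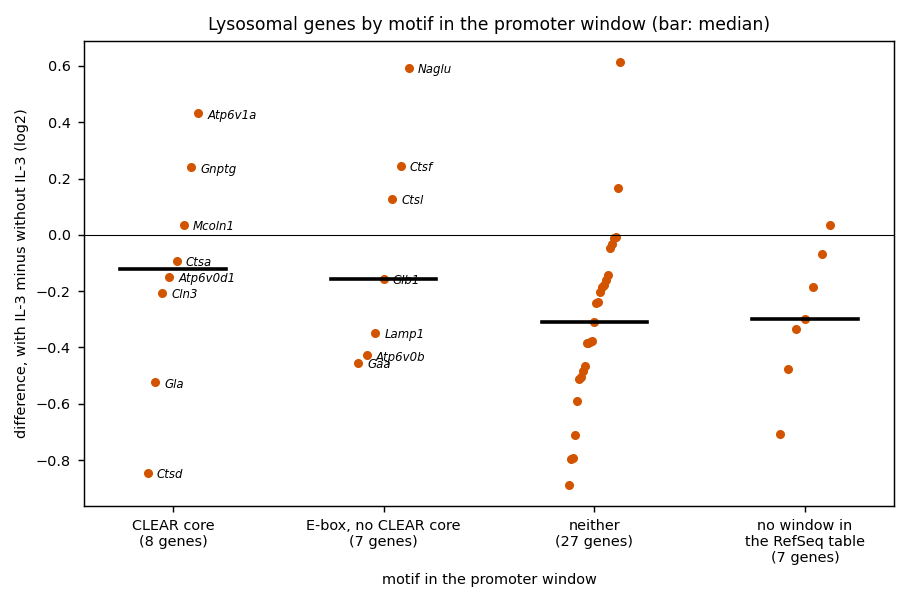
Difference, with IL-3 minus without IL-3 (y axis, log2), of the 49 lysosomal genes by the motif found in their promoter window (x axis), with 1 point per gene and a black bar at the median. Genes with the CLEAR core spread from Ctsd at -0.85 to Atp6v1a at 0.43, and the median is lowest where neither motif was found.

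Further lysosomal genes, taken from lists written from textbook knowledge, were examined beside the 49. Of 19 measured membrane and transport proteins, 16 were below 0 and 5 were lower by 1.5-fold or more with IL-3, with 0 higher by as much and a median of -0.16. Slc17a5, the sialic acid exporter, had 0.20 with IL-3 and 1.06 without IL-3 (1.81-fold lower), and Mfsd8, a transporter-like protein mutated in a form of Batten disease, had 0.37 with IL-3 and 1.20 without IL-3 (1.78-fold lower). The highest in this list, Abcb9 and Laptm4a, differed by 0.04 and 0.01. Of 25 further hydrolases, 16 (64%) were below 0, nearer to the background, with a median of -0.08. Among them 4 were at least 1.5-fold lower and 0 were at least 1.5-fold higher. Arsb, a sulfatase of dermatan sulfate, had 0.09 with IL-3 and 1.07 without IL-3 (1.97-fold lower), a larger difference than that of any of the 49 genes. The dipeptidyl peptidase gene Dpp7 was 1.56-fold lower, while Hyal2 and the endopeptidase gene Lgmn were 1.29-fold and 1.26-fold higher.

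The routes that deliver enzymes to lysosomes differed little. Of 18 measured genes, 10 (55.6%) were below 0, beside 40.1% of all genes, and the median was -0.05. In this list 0 passed 1.5-fold in either direction, where 2.71% of all genes were lower and 3.52% higher by as much. Vps18 (-0.29) and Gga2 (-0.26) were lowest and Nagpa (0.29) and Vps16 (0.26) highest. In the list of TFEB relatives and the mTORC1 machinery of the lysosomal surface, 8 of 20 (40%) were below 0. That share was 40.1% over all genes, and the list median was 0.11. The lowest were Flcn and Fnip1, partners in a complex that acts on the Rag GTPases. Flcn had -0.40 with IL-3 and 0.39 without IL-3 (1.73-fold lower), and Fnip1 had 0.18 with IL-3 and 0.91 without IL-3 (1.66-fold lower). The highest were Lamtor4 (0.58) and Lamtor1 (0.35), subunits of the Ragulator complex that anchors the Rag GTPases. Of the TFEB relatives in this list, Mitf differed by -0.31, Tfe3 by 0.15 and Tfec by 0.17.

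**Figure D4:**
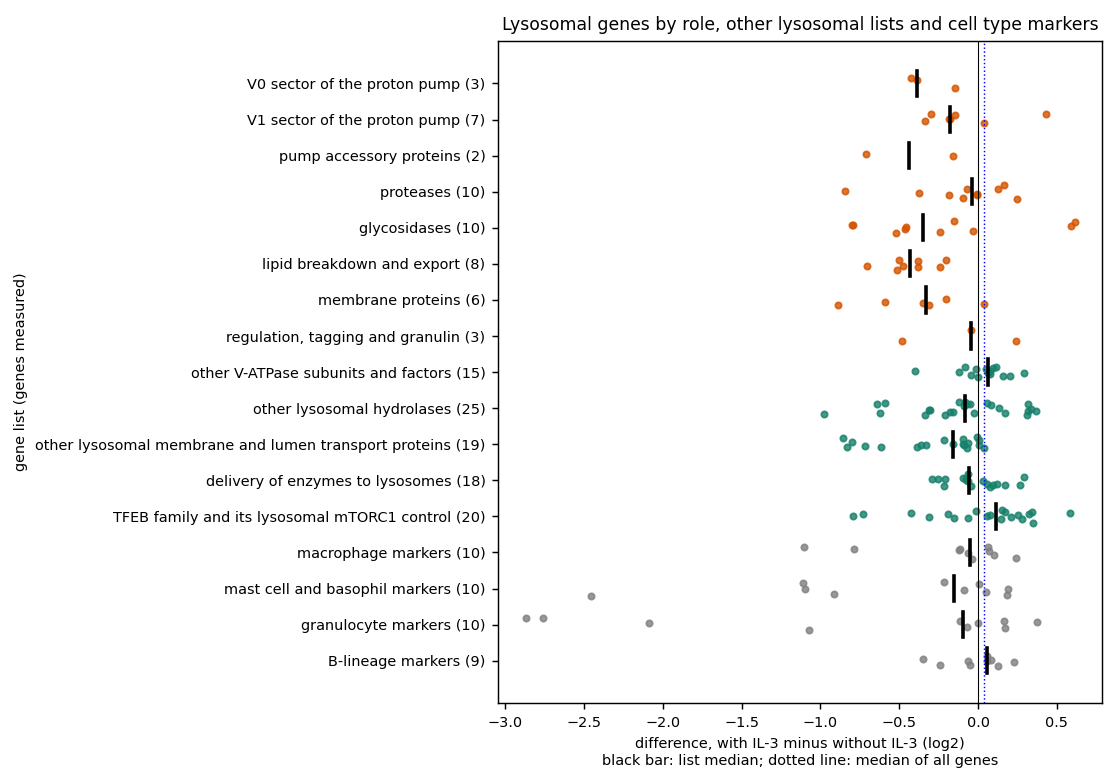
Difference, with IL-3 minus without IL-3 (x axis, log2), by gene list (y axis), with the 49 lysosomal genes by role in orange, other lysosomal lists in green and cell type markers in grey, 1 point per gene. Black bars mark list medians, which lie lowest for the pump accessory proteins (-0.44, only 2 genes) and the lipid group (-0.43, 8 genes). The dotted line marks the median of all genes at 0.04.

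Lysosomal genes are abundant in macrophages, mast cells and granulocytes, and some markers of these cells were lower with IL-3 in the same arrays, while others were not. Over all genes, 40.1% were below 0 and 2.71% were at least 1.5-fold lower. Of 10 mast cell and basophil markers, 6 were below 0 and 4 were at least 1.5-fold lower, led by Fcer1a, the IgE receptor alpha chain (-2.46). The list had a median of -0.15, with 4 above 0, of which Tpsb2 was highest (0.19). Of 10 granulocyte markers, 7 were below 0 and 4 were at least 1.5-fold lower, led by Ngp (-2.87), with a median of -0.09. The other 3 were above 0, with S100a9 highest (0.38). Of 10 macrophage markers, 6 were below 0 and 2 were at least 1.5-fold lower, led by Mpeg1 (-1.10), with a median of -0.05. The other 4 were above 0, with Lyz2 highest (0.24). Cd68, in this list as well as among the further membrane and transport proteins above, differed by -0.07. The 9 measured markers of the B lineage, from which Ba/F3 derives, had a median of 0.05 with 4 below 0. The values carry no level, so no summed level or absence of a marker could be given, and the part of these cell type genes in the lysosomal differences was not tested.

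The 4 X-linked members, Atp6ap2, Lamp2, Gla and Atp6ap1, were all lower with IL-3 (median -0.56), whereas all 739 measured X-linked genes had a median of 0.04, with 37.9% below 0. The signs of the 49 genes depended little on the scaling of the arrays. Under the values as deposited, median centring, quantile normalization and subtraction of a loess trend, 40 genes were below 0 in all 4 and 7 were above 0 in all 4, the exceptions being Mcoln1 and Atp6v1h. The same 7 genes, Cd63, Ctsd, Neu1, Man2b1, Atp6ap2, Asah1 and Lamp2, were at least 1.5-fold lower under each of the 4. With the loess trend subtracted, some genes of high mean value had a difference over 1.5 times as large, among them Gla (-0.84), Gm2a (-0.60) and Ctsb (-0.40).

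**Figure D5:**
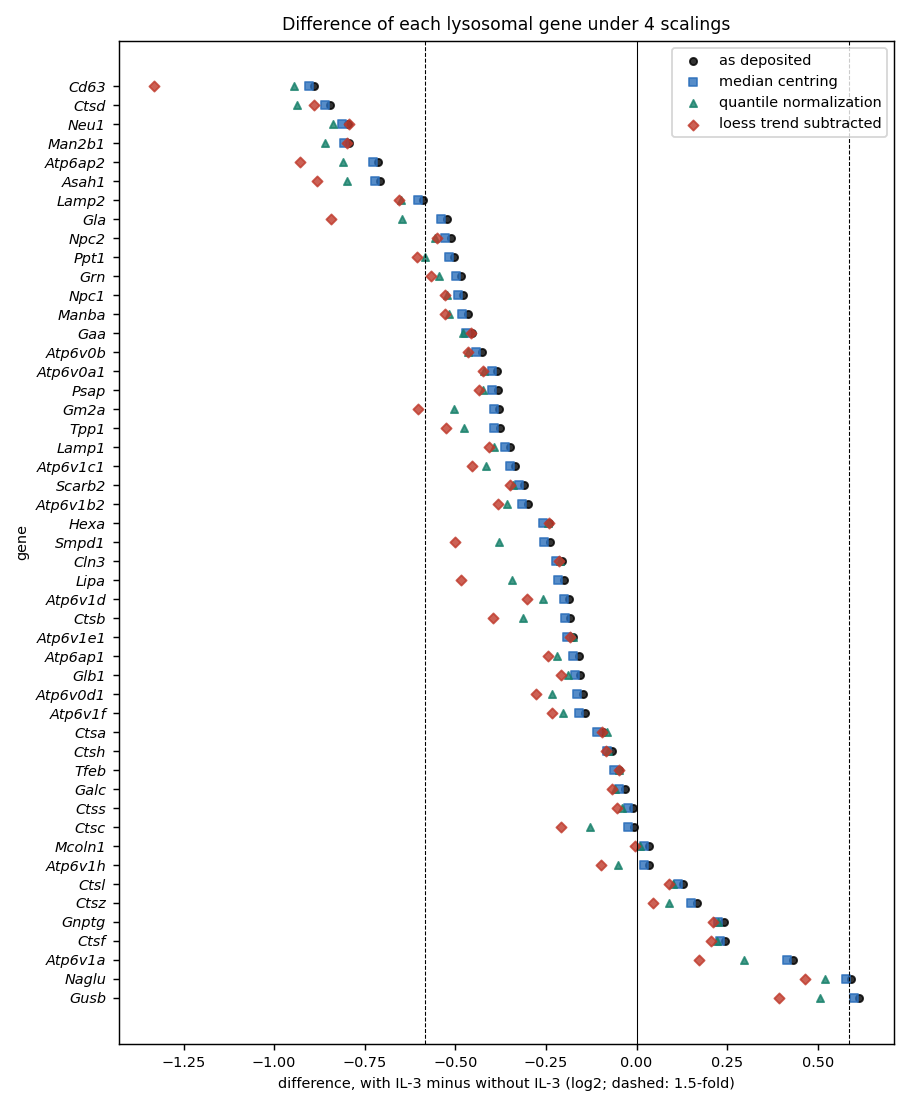
Difference, with IL-3 minus without IL-3 (x axis, log2), of each of the 49 genes (y axis) as deposited and under 3 other scalings of the arrays, with dashed lines at 1.5-fold. The order of the genes is similar, and subtracting the loess trend moves genes with a high mean value, such as Cd63 at -1.33, farthest down.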

How the data were processed

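Ba/F3 cells expressing BCR-ABL were profiled on 2 arrays, 1 per condition, after imatinib. Per the labels' protocols, miRNeasy RNA was converted to biotin-labelled sense-strand cDNA. The deposited values, taken as log2, are the authors' processed values, 1 per probe set and array, relative to a per-probe-set baseline. How background was corrected and probe sets summarised, the log base and the arrays behind the baseline were not given in the sources used here. Natural or base-10 logs would make the printed folds underestimates. The platform annotation gave 1 gene for 21780 probe sets, several for 1605 and none for 5430, and only the first were used. Gene positions and promoter windows are those of RefSeq for GRCm38.p6. Differences, counts and medians were computed in Python 3.11.15 with pandas 2.3.3 and numpy 2.4.6, and the loess trend with statsmodels 0.14.6 (span 0.3, 3 robustness iterations). The code was checked on simulated data with planted differences and less scatter than in these arrays, which does not measure the error of the results. All measured members were named, and of each further list the 2 lowest and 2 highest genes, with others added after their values were seen. The members and lists were chosen with earlier results of these data known. Alternatives were 3 other scalings, other choices of probe set, natural logs and filters on the deposited values. The number of arrays limits the precision.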

Additional observations from a re-analysis of the deposited data

How the results depend on the processing

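The median difference of the lysosomal genes was below 0 under every alternative run, between -0.24 and -0.38, and lay farthest from the value as deposited (-0.24) at -0.38 with the loess trend subtracted. The count at least 1.5-fold higher with IL-3 was 2 as deposited (3.52% of all genes), 1 after median centring (3.21%), 0 after quantile normalization (2.41%) and 0 with the loess trend subtracted (1.79%), which also gave 1 gene, Cd63, at least 2-fold lower. The count at least 1.5-fold lower was 7 as deposited (2.71% of all genes) and 10 with the loess trend subtracted (3.7%). It was 15 if the values are natural logs (5.42%), which would put 6 genes at least 2-fold lower. It was 4 (3.33% of all genes kept) among the 37 genes at or above the median of both arrays, a filter that removes Ctsd, Neu1 and Man2b1 through their values with IL-3. The 37 genes above 0 in both arrays, an alternative chosen after seeing the data, had a median of -0.30. Among the other scalings and choices of probe set, single genes moved by more than the probe set SD with the loess trend subtracted, 12 of 49, and 0 did under the rest. Natural logs would enlarge every difference. No paired analysis was possible because each condition has 1 array. Leaving out a replicate was likewise not possible.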
